A study of Mus musculus with 16 samples.

Results

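The genes described here are 39 genes of the endoplasmic reticulum (ER) that fold secretory proteins, remove misfolded ones or signal ER stress, in liver poly(A) RNA from 16 mice. They were chosen by symbol, as 17 folding genes, 10 genes of ER-associated degradation (ERAD), 11 stress-signalling genes and Emc9, a subunit of the ER membrane complex. They are 39 of the 55401 genes of the deposited table, and all 39 passed the filter of at least 1 FPKM (fragments per kilobase of transcript, scaled by library total) in at least 4 of 16 libraries, which kept 10846 genes. Ddit3 stands in 2 rows of the table. The row used is ENSMUSG00000025408, and the other, ENSMUSG00000116429, holds a count of 1 in every library.

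The mice fall into 4 groups of 4. They were labelled negative control or AKR1B10 knockdown, and either were given BBR, read from the title of the series as berberine, a plant alkaloid, or were not. The sample descriptions carry the prefix AAV, the usual short form of adeno-associated virus. Strain, age, sex, diet, dose, and the promoter and target sequence of the vector are not given in the sources used here, and neither is whether the negative control received a comparable vector beyond that prefix. The replicates are numbered mice, and p-values measure the spread between them.

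In hepatocytes, which export most plasma proteins, the ER holds a dense machinery of chaperones, disulfide isomerases and glycoprotein lectins. When unfolded proteins accumulate, 3 sensors in the ER membrane respond. IRE1 (Ern1) splices Xbp1 mRNA, ATF6 is cut to release a transcription factor, and PERK (Eif2ak3) slows translation and raises ATF4, which drives amino acid and stress genes such as Asns, Trib3 and Ddit3. XBP1 and ATF6 act on chaperone and ERAD genes through the ER stress element.

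The ER stress element is shown first because the members that hold it are set apart again at the comparison of libraries. It was searched as CCAAT, any 9 bases and CCACG on both strands of the 250 bases before the annotated start, and it is in 9 of the 35 members with a promoter in RefSeq (GRCm38.p6), or 25.7%, against 0.13% of the 27025 symbols in that table. The 9 are Calr, Canx, Creld2, Derl3, Dnajc3, Hsp90b1, Hspa5, Pdia6 and Syvn1. The shorter form ATTGG, any base and CCACG is in Herpud1 alone of the 35 members (0.037% of symbols), the element TGACG followed by TGG in Txndc5 alone (0.603%), and the amino acid response motif TGATGNAA, bound by ATF4 with its partners, is in Asns, Chac1, Herpud1 and Txndc5 (3.91%). No matches of different motifs overlapped in a promoter. The first 4 promoters below carry the element. All are written 5′ to 3′ on the strand of the gene with the matched letters in capitals. Capitals that begin with CGTGG or TTGCA are a motif on the opposite strand. They belong to the genes of the chief ER chaperone BiP, the HSP90 of the ER, a ubiquitin ligase of ERAD and a derlin, and the Herpud1 promoter that follows holds the shorter form and the amino acid motif.
Hspa5 (chr2:34771840-34772089, plus strand): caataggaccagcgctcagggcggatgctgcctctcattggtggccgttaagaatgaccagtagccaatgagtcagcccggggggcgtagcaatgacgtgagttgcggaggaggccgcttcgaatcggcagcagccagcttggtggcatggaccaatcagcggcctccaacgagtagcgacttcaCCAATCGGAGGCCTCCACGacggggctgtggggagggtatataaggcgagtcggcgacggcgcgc
Hsp90b1 (chr10:86705445-86705694, minus strand): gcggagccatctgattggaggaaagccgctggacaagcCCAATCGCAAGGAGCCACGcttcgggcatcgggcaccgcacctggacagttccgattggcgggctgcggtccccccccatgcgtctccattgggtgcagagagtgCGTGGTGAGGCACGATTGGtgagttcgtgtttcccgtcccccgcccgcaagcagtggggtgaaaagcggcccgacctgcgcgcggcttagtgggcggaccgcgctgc
Syvn1 (chr19:6046326-6046575, plus strand): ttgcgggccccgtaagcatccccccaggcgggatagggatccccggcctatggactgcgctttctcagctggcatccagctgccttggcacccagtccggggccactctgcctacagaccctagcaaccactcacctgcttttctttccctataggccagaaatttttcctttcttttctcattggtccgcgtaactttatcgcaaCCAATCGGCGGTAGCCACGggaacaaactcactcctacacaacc
Derl3 (chr10:75893148-75893397, plus strand): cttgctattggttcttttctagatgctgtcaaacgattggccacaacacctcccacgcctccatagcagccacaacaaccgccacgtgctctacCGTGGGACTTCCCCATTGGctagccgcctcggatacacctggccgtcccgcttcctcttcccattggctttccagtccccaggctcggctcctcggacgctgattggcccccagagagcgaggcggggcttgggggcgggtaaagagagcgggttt
Herpud1 (chr8:94386179-94386428, plus strand): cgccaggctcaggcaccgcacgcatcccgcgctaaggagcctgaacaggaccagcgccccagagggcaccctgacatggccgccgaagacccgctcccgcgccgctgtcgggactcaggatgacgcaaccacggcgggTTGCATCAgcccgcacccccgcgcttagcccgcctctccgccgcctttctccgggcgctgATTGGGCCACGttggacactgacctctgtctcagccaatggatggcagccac
The next pair sets a gene with the amino acid motif beside Edem2, an ERAD gene in whose window none of the searched motifs was found. A match in these letters is a description of the sequence.
Asns (chr6:7693210-7693459, minus strand): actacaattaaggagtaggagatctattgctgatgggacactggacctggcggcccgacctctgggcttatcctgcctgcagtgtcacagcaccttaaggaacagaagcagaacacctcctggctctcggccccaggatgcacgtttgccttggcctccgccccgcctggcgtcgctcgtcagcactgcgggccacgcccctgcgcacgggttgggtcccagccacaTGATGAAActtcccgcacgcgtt
Edem2 (chr2:155729476-155729725, minus strand): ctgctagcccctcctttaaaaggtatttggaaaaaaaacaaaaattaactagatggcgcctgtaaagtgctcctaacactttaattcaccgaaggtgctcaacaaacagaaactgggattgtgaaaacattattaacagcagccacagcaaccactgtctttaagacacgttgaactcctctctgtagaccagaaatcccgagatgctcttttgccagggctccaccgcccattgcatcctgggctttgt

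Sequencing depth ran from 46273129 to 66235443 counts per library. The libraries labelled knockdown with berberine held 46273129 to 54394727 counts. Each lay below every library labelled knockdown without berberine (lowest 54764510) and every negative control with berberine (lowest 54570970). The part of depth in the results was not tested. The label was checked at Akr1b10, with a mean of 0.397 FPKM for the negative controls against 0.528 FPKM for the label, both without berberine. Exact two-sided permutation gave p = 0.486 without berberine and p = 0.371 with it (n = 4 per group, smallest possible p 0.0286). Akr1b10 lay at 0.177 to 0.859 FPKM over the 16 libraries, under the filter of 1 FPKM. At that level the check cannot decide whether it was knocked down. The groups are therefore called by their label. Knockdown-labelled library 4 stood apart, with 35.4% of its counts from mitochondrially encoded genes against 10.98% to 15.9% in the other 15 libraries. Its TMM factor was 0.776, against 0.947 to 1.08 in the others. Its FPKM values, scaled by library total, therefore stand lower against the other libraries than its TMM-scaled CPM. The tissue label is borne out by 10 of 10 hepatocyte markers being tested, with a summed level of 36466 to 44419 FPKM in those 15 libraries and 21583 FPKM in knockdown-labelled library 4. Pancreatic acinar markers, whose cells are rich in the same ER genes, summed to 2.92 to 14.0 FPKM, and 2 of the 10 were at a count of 0 in all libraries. Plasma and B cell markers summed to 264 FPKM in knockdown-labelled library 3 and to 43.4 to 159 FPKM elsewhere. Neutrophil markers summed to 326 FPKM there and to 0.397 to 21.0 FPKM elsewhere. For the label without berberine, 9 of 9 tested Kupffer cell and macrophage markers had an edgeR log2 fold change above 0 (median 1.12). Of these, 8 had an unadjusted p under 0.05, against 14.8% of all tested genes. Acute phase genes had 9 of 10 above 0 (median 1.79) and 7 under that p. They summed to 19138 FPKM in knockdown-labelled library 3. The rest of its group held 6045, 3490 and 2125 FPKM, and the controls 2858 to 3680 FPKM. Under berberine, 5 of 9 macrophage markers and 0 of 10 acute phase genes were above 0 for the label. For berberine in the negative controls these were 9 of 9 and 10 of 10, with 0 and 7 under that p (3.68% of all genes). Acute phase genes summed to 17584 FPKM in library 2 of that treated group and to 3452 to 3769 FPKM in its rest. Of 9 tested clock output genes, 0 were above 0 for berberine in the negative controls (median -1.48) and 9 for the label under berberine (median 0.98). There were 4 for the label without berberine and 1 for berberine in the libraries labelled knockdown. They summed to 19.7, 14.8, 71.4 and 90.1 FPKM in the negative controls with berberine. The part of these cells and genes in the results was not tested. In whole liver, fewer cells of a type and less RNA per cell cannot be told apart.

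No member passed an adjusted p of 0.05 in any of the 5 comparisons in the quasi-likelihood fit of edgeR, adjusted by Benjamini-Hochberg over the 10846 genes tested, and neither did any other gene (background 0%). At an unadjusted p under 0.05 there were 4 members of 39 for the label without berberine (10.3%, against 14.8% of all tested genes), 3 for berberine in the negative controls (7.69%, against 3.68%) and 4 for berberine in the libraries labelled knockdown (10.3%, against 9.48%). The counts were 2 for the label under berberine (5.13%, against 4.57%) and 4 for the interaction, the difference between the berberine effects (10.3%, against 6.56%). Most of these shares were near the background. DESeq2 called 2, 0, 2, 1 and 0 members at an adjusted p under 0.05 in the same order, against 0.968%, 0.0277%, 0.507%, 0.0461% and 0.0922% of all tested genes. Groups did not overlap in TMM-scaled CPM for 3 members for the label without berberine (Sdf2, Edem2 and Atf6; 4.88% of all genes), 2 for berberine in the negative controls (Txndc5 and Emc9; 3.55%), 2 for berberine in the libraries labelled knockdown (Derl2 and Edem2; 3.91%) and 3 for the label under berberine (Txndc5, Derl2 and Os9; 4.59%). The comparisons share groups, so their values are set side by side and are not independent of each other.

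**Figure D1:**
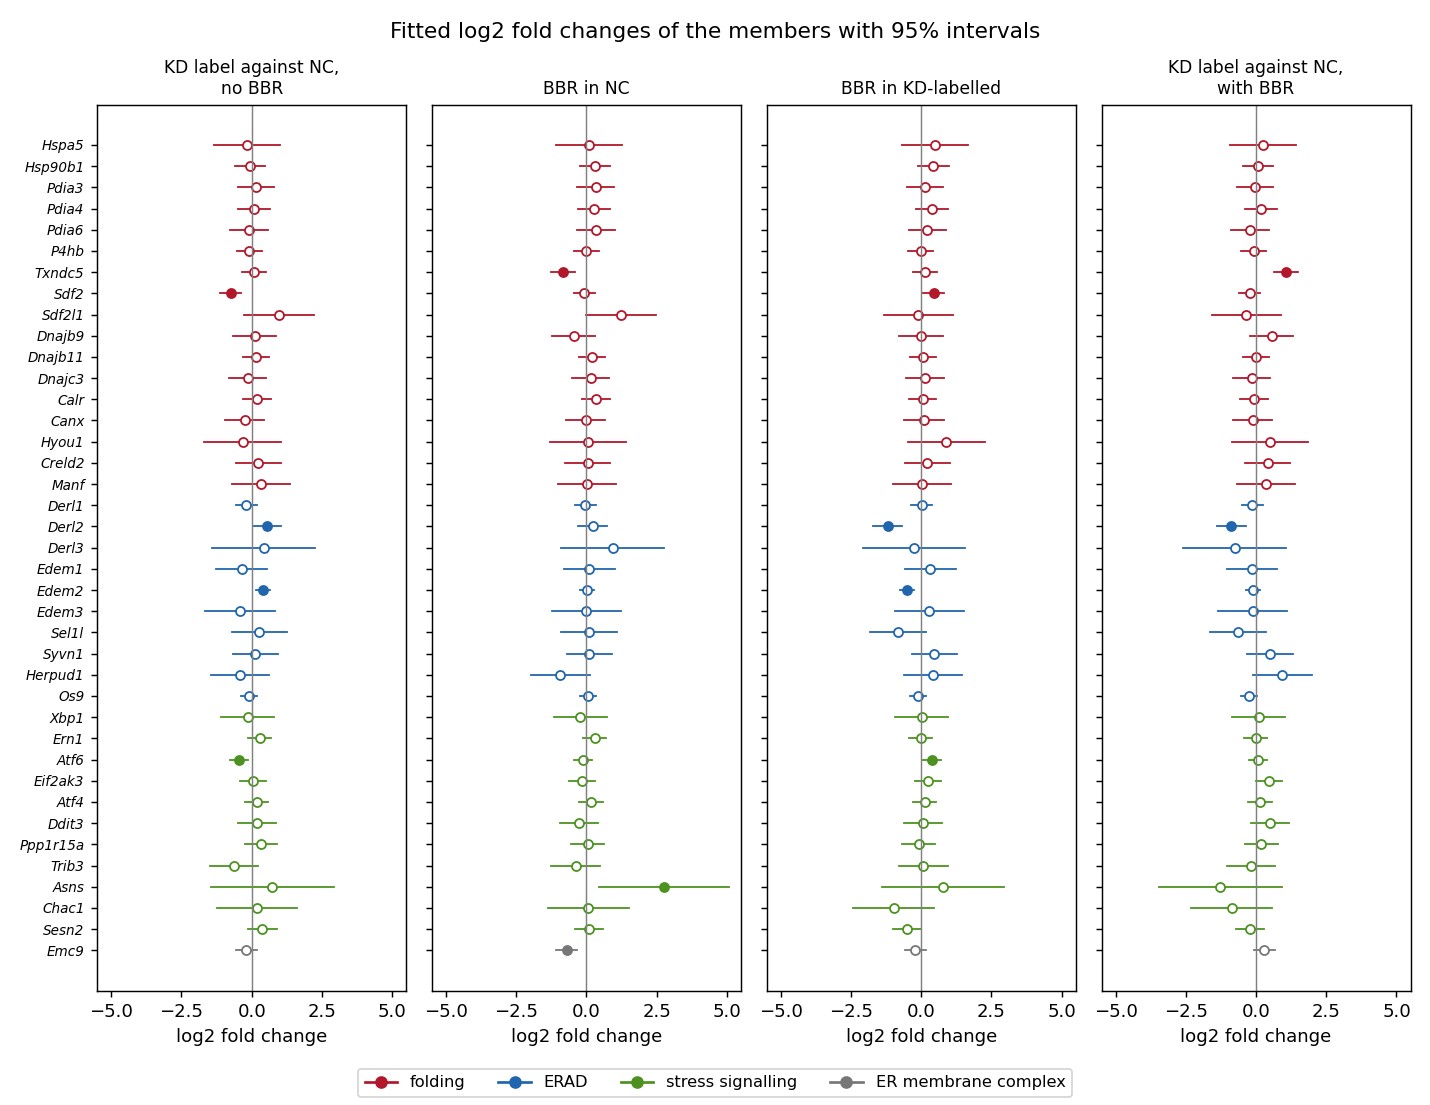
Fitted log2 fold changes of the 39 members (points) with 95% intervals (lines) in 4 comparisons, coloured by member group; filled points have an unadjusted p under 0.05. Most intervals cross 0, and the widest belong to Asns and Derl3.

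The folding genes as a whole moved by little between groups. Their median log2 fold change was 0.071 for the label without berberine, where the median of all tested genes was 0.020, and 9 of 17 were above 0, against 51.9% of all genes. For berberine in the negative controls it was 0.077 (all genes -0.0017), with 12 of 17 above 0, against 49.7%. For berberine in the libraries labelled knockdown it was 0.13 (all genes -0.027), with 14 of 17 above 0, against 46.6%. For the label under berberine it was -0.0041 (all genes -0.0053), with 8 of 17 above 0, against 49%. For the interaction it was 0.10 (all genes -0.014), with 10 of 17 above 0, against 48.8%. In the same order, the ERAD medians were 0.023, 0.065, -0.040, -0.14 and -0.046, with 5, 8, 5, 2 and 5 of 10 genes above 0. The stress-signalling medians were 0.18, 0.045, 0.050, 0.054 and -0.039, with 8, 6, 7, 6 and 5 of 11 above 0.

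Among the folding genes, Hspa5 encodes BiP, the HSP70 of the ER that binds nascent chains and holds the stress sensors inactive. It stood at 109.9, 124, 103 and 41.5 FPKM in the negative controls, at 32, 101, 62.4 and 202 with berberine, at 82.9, 157, 61.3 and 22.3 in the libraries labelled knockdown, and at 114, 168, 144 and 67.2 in those with berberine. All 4 groups overlapped widely. Without berberine, the libraries labelled knockdown were fitted at 0.897 times the controls (95% interval 0.397 to 2.03; edgeR adjusted p = 0.908), and the fitted ratio for berberine in the negative controls was 1.05 (0.466 to 2.38; edgeR adjusted p = 0.999). Without knockdown-labelled library 4 the log2 value for the label moved from -0.16 to 0.14, and without negative control library 4 with berberine the value for berberine moved from 0.077 to -0.48. The sign thus differed when either library was left out.

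Hsp90b1, the HSP90 of the ER known as GRP94, stood at 95.6, 96.6, 100.04 and 119.9 FPKM in the negative controls and 125, 124, 87.9 and 171 FPKM with berberine. It stood at 89.1, 115, 131 and 39.4 FPKM in the libraries labelled knockdown and 113, 159, 137 and 139 FPKM in those with berberine. Apart from 39.4 in knockdown-labelled library 4, the values stayed between 87.9 and 171 FPKM. A pseudogene on the opposite strand covers 10.3% of its exons, so its counts may include reads of that neighbour.

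Txndc5 was the folding gene with the most distinct groups. It encodes a thioredoxin-domain disulfide isomerase (ENSMUSG00000038991, chromosome 13, 38500079 to 38528490, minus strand, mm10). Its level was 27.3, 31.1, 22.6 and 34.2 FPKM in the negative controls and 13.2, 10.8, 22.1 and 17.7 FPKM with berberine, and these groups did not overlap. It was 23.3, 34.9, 36.4 and 19.9 FPKM in the libraries labelled knockdown and 38.9, 33.1, 33.9 and 32.3 FPKM in those with berberine, so the lowest berberine-treated knockdown-labelled library lay above the highest berberine-treated negative control. The group means were 28.8 ± 4.98, 16 ± 4.98, 28.6 ± 8.24 and 34.5 ± 2.96 FPKM (SD, n = 4 each). The log2 fold change of berberine in the negative controls was -0.84 (SE 0.20), with unadjusted p = 0.000693 and edgeR adjusted p = 0.999. That of the label under berberine was 1.06 (SE 0.20), with unadjusted p = 8.24e-05, the smallest of the 10846 genes, and edgeR adjusted p = 0.679; DESeq2 gave an adjusted p of 0.00231. The interaction was 0.97 (SE 0.28), with unadjusted p = 0.00334 and edgeR adjusted p = 0.756. The opposite-strand genes Bmp6 and Gm31834 overlap 4.99% and 6.92% of its exons.

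Sdf2 encodes a small ER protein of the SDF2 family that works with ER chaperones (ENSMUSG00000002064, chromosome 11, 78245746 to 78255496, plus strand, mm10). It was 18.5, 18.6, 17.9 and 19.2 FPKM in the controls without berberine and 9.62, 13.4, 11.6 and 7.06 FPKM in those labelled knockdown, with every labelled library below every control. With berberine it was 22, 17.9, 13.4 and 16.5 FPKM and 15.9, 16.7, 12.2 and 17.7 FPKM, and these groups overlapped. The log2 fold change of the label without berberine was -0.74 (SE 0.17), with unadjusted p = 0.00074 and edgeR adjusted p = 0.267; DESeq2 gave an adjusted p of 0.0246. Without knockdown-labelled library 2, edgeR's adjusted p was 0.0257, in a fit that called 609 of all 10846 genes (5.61%) for this comparison and 2 of the 39 members (Sdf2 and Edem2). The opposite-strand gene Supt6 overlaps 15.97% of its exons, and 6.16% of its 150-base windows occur in another gene, so the level is uncertain. Its relative Sdf2l1, which ER stress is known to raise, ran from 2.47 FPKM in knockdown-labelled library 4 to 55.2 FPKM in negative control library 4 with berberine.

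The remaining 12 folding genes, like Hspa5, Hsp90b1 and Sdf2l1, had an unadjusted p of 0.05 or more in all comparisons. The most abundant were P4hb, which encodes a protein disulfide isomerase, at 123 to 383 FPKM, and Calr, the soluble lectin chaperone, at 106 to 337 FPKM. Pdia3, which pairs with calreticulin and calnexin, ran from 31 to 162 FPKM, Pdia4 from 26.1 to 106 FPKM and Pdia6 from 10.6 to 54.9 FPKM. Canx, the membrane-bound lectin, ran from 6.96 to 37.9 FPKM. The J-domain partners of BiP were Dnajb9 at 5.11 to 21.9 FPKM, Dnajb11 at 9.22 to 28.8 FPKM and Dnajc3 at 5.09 to 29.9 FPKM. Hyou1, a nucleotide exchange factor for BiP, ran from 0.399 to 8.39 FPKM, and the ER stress-inducible secreted proteins Creld2 and Manf from 12.5 to 58.3 FPKM and from 5.1 to 53.9 FPKM. FPKM levels of different genes rest on the length the authors' values imply, which lies near all exons of a gene together.

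In the ERAD machinery, Derl2 and Edem2 had the most distinct groups. Derl2 encodes a derlin, part of the membrane channel through which misfolded proteins leave the ER (ENSMUSG00000018442, chromosome 11, 71007164 to 71019303, minus strand, mm10). Its level was 11.3, 10.8, 14.5 and 7.21 FPKM in the libraries labelled knockdown and 5.3, 6.11, 4.88 and 4.75 FPKM in those with berberine, with no overlap. It was 5.32, 5.82, 8.88 and 12 FPKM in the negative controls and 10.1, 9.77, 10.2 and 6.87 FPKM with berberine, where the groups overlapped. The log2 fold change of berberine in the libraries labelled knockdown was -1.19 (SE 0.24), with unadjusted p = 0.000158 and edgeR adjusted p = 0.37; DESeq2 gave an adjusted p of 0.00257. The label under berberine gave -0.88 (SE 0.24), with every labelled library below every control, unadjusted p = 0.00217 and edgeR adjusted p = 0.995. For the label without berberine the sign was opposite, at 0.54 (SE 0.24), with overlapping groups and edgeR adjusted p = 0.316. The interaction was -1.41 (SE 0.33), with unadjusted p = 0.000742 and edgeR adjusted p = 0.756.

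Edem2 encodes a mannosidase-like protein that trims glycans on misfolded glycoproteins (ENSMUSG00000038312, chromosome 2, 155701677 to 155729475, minus strand, mm10). It was 15.7, 14.4, 15.3 and 15.3 FPKM in the controls without berberine and 16.9, 17.7, 23.4 and 16.8 FPKM in those labelled knockdown, the higher group, without overlap. With berberine it was 14.7, 14.9, 14.4 and 16.7 FPKM and 15.4, 13.7, 14.2 and 14.8 FPKM. It was the steadiest member, with a within-group SD of 0.13 on the log2 CPM scale, so small differences stood out. The log2 fold change was 0.41 (SE 0.12) for the label without berberine (edgeR adjusted p = 0.267; DESeq2 adjusted p = 0.0441) and -0.52 (SE 0.12) for berberine in the libraries labelled knockdown (edgeR adjusted p = 0.393; DESeq2 adjusted p = 0.00490). The interaction was -0.53 (SE 0.16), with unadjusted p = 0.00553 and edgeR adjusted p = 0.756. Without knockdown-labelled library 2, edgeR's adjusted p for the label was 0.0473, in the fit that called 5.61% of all genes.

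**Figure D2:**
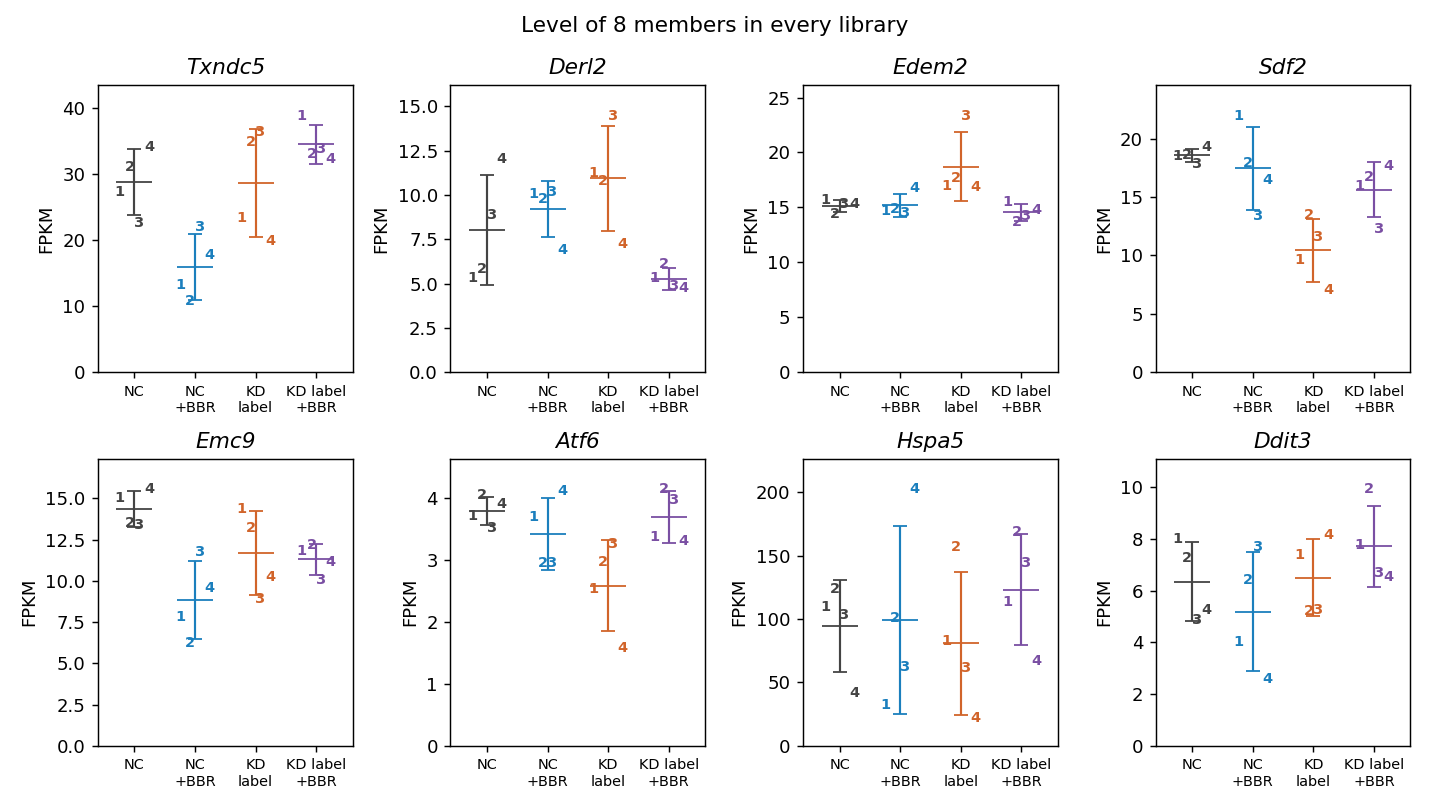
FPKM of 8 members in every library (numerals are the library numbers), with the group mean and SD as lines, in 4 groups of 4. Txndc5, Derl2, Edem2, Sdf2, Emc9 and Atf6 have at least 1 pair of groups that do not overlap, while the groups of Hspa5 and Ddit3 overlap.

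Of the other 8 ERAD genes, Os9, a lectin gene, had groups that did not overlap in TMM-scaled CPM, for the label under berberine: 263 to 320 CPM in the negative controls and 226 to 259 CPM in the libraries labelled knockdown. Its log2 fold change there was -0.24 (SE 0.13), with unadjusted p = 0.092 and edgeR adjusted p = 0.995, and in FPKM the groups overlapped. The groups of the other 7 overlapped on that CPM scale in each comparison of 2 groups. Edem3, a further mannosidase-like gene, was at 0.342 FPKM in knockdown-labelled library 3 and 0.452 FPKM in knockdown-labelled library 4 with berberine, against 2.04 to 4.54 FPKM (782 to 1786 counts) in the other 14. Sel1l, the scaffold of the HRD1 ubiquitin ligase complex, fell into 2 ranges with a gap between them, 2.45 to 4.57 FPKM in 10 libraries and 7.23 to 11.7 FPKM in 6. Those 6 were libraries 1 and 2 of the negative controls, 2 and 4 of the negative controls with berberine, and 2 and 3 of the libraries labelled knockdown. Syvn1, the ligase HRD1 itself, ran from 6.6 to 33.9 FPKM and Herpud1, which organises that complex, from 15.5 to 194 FPKM. Derl1 ran from 12 to 33.2 FPKM, Edem1 from 1.32 to 14.3 FPKM and Os9 from 52.8 to 111 FPKM. Derl3 was scarce, at 0.128 to 4.8 FPKM.

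Among the stress-signalling genes, the sensor Atf6 varied least within groups. It (ENSMUSG00000026663, chromosome 1, 170704674 to 170867771, minus strand, mm10) was 3.71, 4.04, 3.52 and 3.89 FPKM in the controls without berberine and 2.52, 2.96, 3.26 and 1.58 FPKM in those labelled knockdown, which all lay below the controls. It was 3.69, 2.94, 2.94 and 4.11 FPKM in the negative controls with berberine and 3.37, 4.13, 3.96 and 3.3 FPKM in the treated libraries of the label. On the log2 scale the label without berberine gave -0.47 (SE 0.15), with unadjusted p = 0.00758 and edgeR adjusted p = 0.267. That of berberine in the libraries labelled knockdown was 0.38 (SE 0.15), with edgeR adjusted p = 0.472; those groups did not overlap in FPKM but did in CPM scaled by TMM factors. The interaction was 0.52 (SE 0.21), with unadjusted p = 0.0277 and edgeR adjusted p = 0.756. Ern1 ran from 2.75 to 5.34 FPKM and Eif2ak3 from 0.807 to 2.01 FPKM.

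Xbp1, whose spliced mRNA encodes the factor made active by IRE1, is counted here over both splice forms. It was 16.5, 20.03, 14.3 and 16.1 FPKM in the negative controls and 10.3, 13.2, 8.87 and 25 FPKM with berberine. It was 9.02, 24.1, 21.4 and 3.83 FPKM in the libraries labelled knockdown and 11.6, 20.7, 21.7 and 9.62 FPKM in those with berberine. The spread within each treated or labelled group exceeded the distance between groups.

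Atf4, the transcription factor of the PERK branch, is controlled largely at translation. Its mRNA was 41.1, 32.9, 36.8 and 39.9 FPKM in the negative controls, 49.6, 38.5, 32.4 and 47.7 FPKM with berberine, 33.3, 32.1, 44.2 and 46 FPKM in the libraries labelled knockdown and 61.5, 50.8, 43.3 and 37.5 FPKM in those with berberine. All groups overlapped. Ddit3, which encodes the pro-apoptotic factor CHOP, was 8.01, 7.28, 4.88 and 5.24 FPKM in the negative controls and 4.03, 6.43, 7.71 and 2.6 FPKM with berberine. It was 7.4, 5.21, 5.27 and 8.17 FPKM in the libraries labelled knockdown and 7.75, 9.92, 6.67 and 6.52 FPKM in those with berberine. The fitted ratio of Ddit3 was 1.13 for the label without berberine (95% interval 0.71 to 1.81; edgeR adjusted p = 0.799) and 0.834 for berberine in the negative controls (0.522 to 1.33; edgeR adjusted p = 0.999).

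Asns, asparagine synthetase and a target of ATF4, varied most of all members. It was 0.322, 0.125, 0.793 and 0.309 FPKM in the negative controls and 1.39, 7.51, 0.367 and 1.05 FPKM with berberine. It was 0.374, 1.12, 0.862 and 0.146 FPKM in the libraries labelled knockdown and 0.129, 2.75, 1.68 and 0.124 FPKM in those with berberine. Library 2 of the negative controls with berberine was the highest of all 16. The log2 fold change of berberine in the negative controls was 2.77 (SE 1.08), with unadjusted p = 0.0218 and edgeR adjusted p = 0.999, and the groups overlapped. Without that library the log2 fold change was 1.22 (SE 0.96) and the unadjusted p was above 0.05. Acute phase genes summed to 17584 FPKM in the same library and to 3452 to 3769 FPKM in the other 3 of its group. They summed to 19138 FPKM in knockdown-labelled library 3, where Asns was at 0.862 FPKM. The part of acute phase genes in the result was not tested.

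Trib3, a pseudokinase that ATF4 and CHOP induce, was 5.44, 7.5, 10.6 and 7.84 FPKM in the negative controls and 6.69, 2.91, 9.41 and 5.12 FPKM with berberine. It was 4.98, 5.89, 2.96 and 4.72 FPKM in the libraries labelled knockdown and 2.39, 3.8, 7.54 and 8.04 FPKM in those with berberine, with overlap throughout. Of the 35 comparisons of these 7 members (Hspa5, Hsp90b1, Xbp1, Atf4, Ddit3, Asns and Trib3), only that of Asns had an unadjusted p under 0.05, and the next smallest was 0.105. Chac1, which degrades glutathione, ran from 0.326 to 5.72 FPKM. Ppp1r15a, which encodes the phosphatase subunit GADD34, ran from 3.1 to 9.11 FPKM and Sesn2 from 2.5 to 5.83 FPKM.

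Emc9 encodes a subunit of the complex that inserts membrane proteins into the ER (ENSMUSG00000022217, chromosome 14, 55581516 to 55585211, minus strand, mm10). It was 15, 13.5, 13.4 and 15.5 FPKM in the negative controls and 7.82, 6.25, 11.7 and 9.55 FPKM with berberine, without overlap. It was 14.4, 13.2, 8.89 and 10.2 FPKM in the libraries labelled knockdown and 11.8, 12.2, 10.05 and 11.2 FPKM in those with berberine. Berberine in the negative controls gave a log2 fold change of -0.70 (SE 0.18), with unadjusted p = 0.00135 and edgeR adjusted p = 0.999. Its interaction was 0.49 (SE 0.25), with unadjusted p = 0.0704 and edgeR adjusted p = 0.764, and that of Sdf2 was 0.52 (SE 0.25), with unadjusted p = 0.0525 and edgeR adjusted p = 0.756.

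The spread between mice of a group differed from gene to gene. On the log2 CPM scale with TMM scaling, the median within-group SD was 0.49 over the folding genes, 0.65 over the ERAD genes and 0.39 over the stress-signalling genes, against 0.36 over all tested genes. Of the folding genes 12 of 17 lay above that median of all genes and 5 below (Txndc5, Sdf2, P4hb, Dnajb11 and Calr). Of the ERAD genes 6 lay above and 4 below (Derl1, Derl2, Edem2 and Os9), and of the stress-signalling genes 6 lay above and 5 below. Knockdown-labelled library 4 was below the mean of the other 3 libraries of its group for 17 of 17 folding genes, with a median of -1.48, for 8 of 10 ERAD genes (-0.70) and for 6 of 11 stress-signalling genes (-0.074). Over all 10846 genes, 5398 lay below, with a median of 0.0060. Folding genes made up 0.228% of the non-mitochondrial counts there and 0.376% to 0.680% in the other 15 libraries. Hepatocyte markers were low in the same library, and mitochondrial counts high; their part in the result was not tested. As a percentage of the summed hepatocyte marker FPKM, the folding genes were at 2.01% in that library and 2.15% to 4.55% elsewhere.

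**Figure D3:**
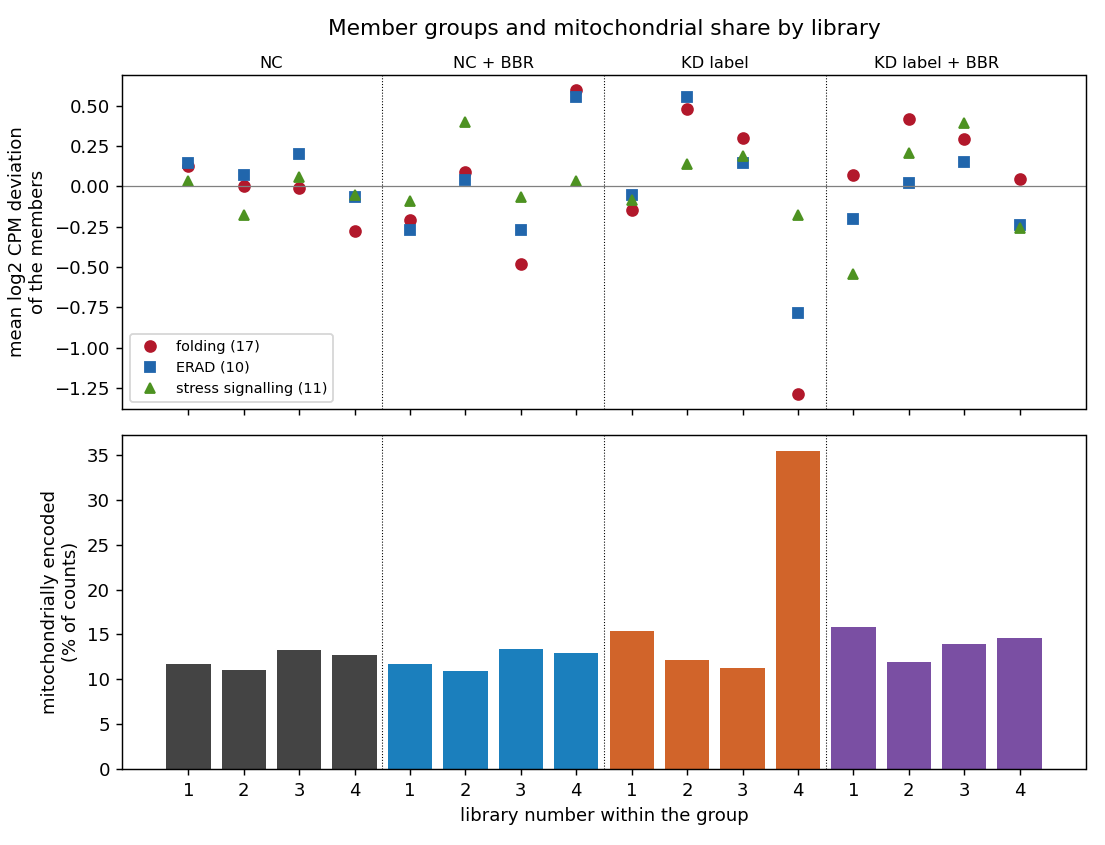
Top, mean deviation in log2 CPM (TMM-scaled) of the folding, ERAD and stress-signalling members from their means over 16 libraries, by library; bottom, bars of the percentage of counts from mitochondrially encoded genes. Knockdown-labelled library 4 is lowest for folding and ERAD and has 35.4% mitochondrial counts.

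Negative control library 4 with berberine lay at the other end for the folding and ERAD genes, and was singled out after its values were seen. It was above the mean of the other 3 of its group for 16 of 17 folding genes (median 0.55), 8 of 10 ERAD genes (0.19) and 5 of 11 stress-signalling genes (-0.22), where the median of all tested genes was -0.0016. Its mitochondrial share was 12.9%, within the range of the others. Other libraries came near it in mean log2 CPM deviation from the mean of all 16. Over the folding genes its value was 0.597, with 0.477 in knockdown-labelled library 2 and 0.417 in library 2 of that label with berberine. Over the ERAD genes its value was 0.555, with 0.554 in knockdown-labelled library 2. Of the 9 members with the ER stress element shown above, 8 were lowest in knockdown-labelled library 4 and 6 were highest in negative control library 4 with berberine. Of the other 26 members with a promoter, 11 were lowest in the former and 4 highest in the latter. The median deviation in knockdown-labelled library 4 from the mean of all 16 was -1.42 for the 9 and -0.38 for the 26. The sets differ in makeup, since the 9 are 7 folding and 2 ERAD genes, while the 26 include 10 stress-signalling genes, whose median there was 0.073. Within the folding genes alone, 6 of the 7 with the element and 7 of the 8 without it were lowest in that library, with medians of -1.42 and -0.93, and 4 and 2 were highest in negative control library 4 with berberine.

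**Figure D4:**
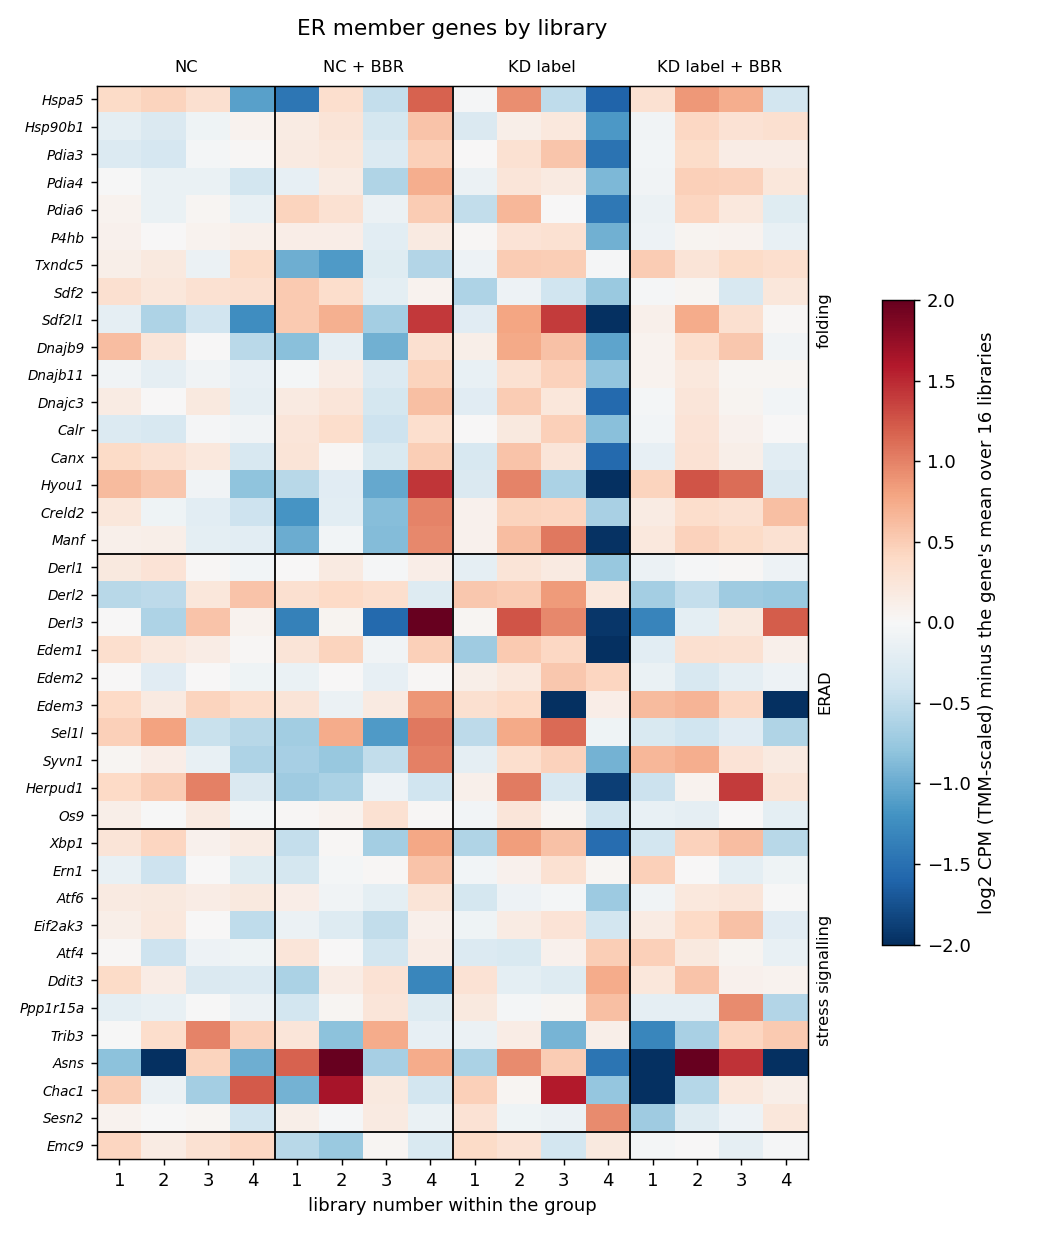
Log2 CPM (TMM-scaled) of each member minus its mean over the 16 libraries, in 4 groups of 4; colours stop at 2 in either direction, and black lines part the groups and the folding, ERAD and stress-signalling members, with Emc9 last. Most folding rows, Txndc5 being an exception, darken together in library 4 of the label without BBR and in library 4 of the negative controls with BBR, in opposite directions.

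These libraries bear on the counts of members. Without knockdown-labelled library 4, 8 members were at an unadjusted p under 0.05 for the label without berberine, 6 higher and 2 lower (20.5%, against 10.2% of all genes in that fit). They were Pdia3, Sdf2, Sdf2l1, Dnajb11, Calr, Derl2, Edem2 and Atf6, and none passed the adjusted threshold of edgeR. The folding median for that comparison moved from 0.071 to 0.18, with 16 of 17 above 0, and for berberine in the libraries labelled knockdown from 0.13 to -0.14, with 7 of 17 above 0. Without negative control library 4 with berberine, the folding median for berberine in the negative controls moved from 0.077 to -0.031, with 6 of 17 above 0, and the label under berberine had 6 members instead of 2 (15.4%, against 6.91%).

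Other genes of the same pathways, from lists set by function, gave no call by edgeR either. Without berberine, 0 of 9 other ER membrane complex genes had a log2 fold change above 0 for the label (median -0.36; 51.9% of all tested genes were above 0), and 1 had an unadjusted p under 0.05. Berberine in the negative controls likewise left 0 of 9 above 0, with a median of -0.065 (49.7% of all genes were above 0). For berberine in the libraries labelled knockdown 8 of 9 were above 0 (median 0.19), where 46.6% of all genes were. Emc1 had the smallest p there, at 1.86 (SE 0.57, unadjusted p = 0.00501, adjusted p = 0.396), from 0.77 ± 0.382 to 3.16 ± 1.32 FPKM (SD, n = 4 each). Of 24 translocon and oligosaccharyltransferase genes, 18 were above 0 for berberine in the negative controls (median 0.16). For the label under berberine 6 were (median -0.14), where 49% of all genes were. There were 12 for the label without berberine and 10 for berberine in the libraries labelled knockdown. For the label without berberine, unadjusted p was under 0.05 for 5 of 24 translocon and oligosaccharyltransferase genes, 5 of 28 other folding genes, 3 of 28 other ERAD genes and 2 of 30 other stress-signalling genes, against 14.8% of all genes. The smallest belonged to Krtcap2, an oligosaccharyltransferase subunit, at 1.11 (SE 0.29, unadjusted p = 0.00174, adjusted p = 0.267), with means of 18 ± 7.02 and 36.8 ± 12.4 FPKM; DESeq2 gave an adjusted p of 0.0441. The same 4 lists held 4, 1, 2 and 1 such genes for berberine in the libraries labelled knockdown, against 9.48% of all genes, and for the interaction 2, 1, 1 and 1, against 6.56%. For berberine in the negative controls, 0 genes of these lists had an unadjusted p under 0.05, against 3.68% of all genes. For the label under berberine 3 did, against 4.57% of all genes. They were 7.14% of the 28 other ERAD genes and 3.33% of the 30 other stress-signalling genes, with 0 in the other lists. Fgf21, a liver hormone that ATF4 can induce, was the smallest of the 3, at 1.43 (SE 0.44, unadjusted p = 0.00568, adjusted p = 0.995), with means of 2.73 ± 0.737 and 7.71 ± 1.91 FPKM.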

How the data were processed

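Poly(A) RNA was made into dUTP-marked libraries and read as 150-base pairs, per the labels' protocols. The submitters' processing notes name cutadapt 1.9, HISAT2 2.0.4, StringTie 1.3.4d, edgeR, DESeq2 and mm10, with no roles; the counting tool and strand setting are not given in the sources used here, so opposite-strand overlaps are uncertain. The deposited table pairs raw counts per gene and library, per the file headers, with FPKM made by the authors (0.0001 where the count is 0).

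Counts of 10846 genes were fitted with edgeR 4.0.16 (R 4.3.3; TMM, 4 group means over 16 libraries, quasi-likelihood test, two-sided, Benjamini-Hochberg adjustment). Intervals are at 95% from the fitted spread. CPM here is scaled by TMM factors. Groups do not overlap where they separate in that CPM; exceptions are stated. The members, lists and comparisons were chosen with earlier results of these data known, and Sdf2, Txndc5, Emc9, Derl2 and Edem2 had been named in them, so they are no independent evidence. Named in full are 7 members with set roles, those at an unadjusted p under 0.05 with separate groups, the 6 smallest p of the interaction, and up to 3 other genes per comparison. Alternatives were DESeq2 1.42.0, limma 3.58.1 on log2(FPKM + 1), other scaling and filters, the groups compared alone, a replicate block, mitochondrial genes removed, and libraries left out. The procedure was tested on simulated counts. Exons came from GENCODE M21, promoters from RefSeq (GRCm38.p6). Promoters of 4 members (Derl1, Atf6, Manf and Hyou1) were not used here.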

Additional observations from a re-analysis of the deposited data

Results flagged for a closer look

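Of 156 combinations of a member and a group of 4, 8 had a highest or lowest library far from the other 3 by Dixon's criterion in FPKM, where chance gives about 7.8 (1 in 20). Negative control library 4 with berberine held 4 of the 8. It was high for Hyou1 at 8.39 FPKM, against 1.49 to 2.37 in the other 3, for Derl3 at 4.8 FPKM, against 0.225 to 0.700, and for Syvn1 at 33.9 FPKM, against 8.89 to 11.7. It was low for Derl2 at 6.87 FPKM, against 9.77 to 10.2. Asns was high in negative control library 2 with berberine, at 7.51 FPKM against 0.367 to 1.39. Edem2 was high in knockdown-labelled library 3, at 23.4 FPKM against 16.8 to 17.7. In TMM-scaled CPM, libraries 1 to 4 of that group held 66.9, 71.3, 89 and 82.6, so library 3 lay near library 4. Edem3 was low in negative control library 2, at 2.87 FPKM against 3.08 to 3.11, and Ppp1r15a in negative control library 1, at 4.02 FPKM against 4.41 to 4.47. In TMM-scaled CPM these were 19.3 against 21.6 to 23 for Edem3 and 13.4 against 13.8 to 15.2 for Ppp1r15a. The flags hold for FPKM only, since CPM was not screened.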

How the results depend on the processing

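For 29 named fold changes, 742 refits under 26 settings gave 719 with the same direction and side of the adjusted threshold, 7 that passed it in the same direction and 16 of opposite sign, all 16 for Hspa5 or Ddit3, which had no unadjusted p under 0.05 in any comparison. DESeq2 called 2 members for the label without berberine, 2 for berberine in the libraries labelled knockdown and 1 for the label under berberine, where edgeR called 0. Fits of only the groups compared gave 6 members at an unadjusted p under 0.05 for berberine in the negative controls (main 3) and 4 for the label under berberine (main 2), with 6.03% and 7.14% of all genes in those fits (main 3.68% and 4.57%). Without knockdown-labelled libraries 3 and 4 these were 5 and 4 (6.06% and 7.84% of all genes).

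A further setting was chosen after seeing the data: knockdown-labelled library 4 and negative control library 4 with berberine left out together. The counts at an unadjusted p under 0.05 became 9 for the label without berberine, 8 for berberine in the negative controls, 2 for berberine in the libraries labelled knockdown and 10 for the label under berberine (main 4, 3, 4 and 2), against 10.8%, 7.25%, 11.6% and 10.9% of all genes. The second library was picked for its member levels, so these p-values run small; 0 members passed the adjusted threshold.

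Leaving out each library in turn gave 0 to 2 members called for the label without berberine and 0 in the other comparisons; the 2 came without knockdown-labelled library 2, where 5.61% of all genes were called and 2 members are 5.13%. Counts at an unadjusted p under 0.05 ran from 3 to 8, 2 to 5, 2 to 7, 2 to 6 and 3 to 7, the last for the interaction, while the share of all genes ran from 9.45% to 27.3%, 2.41% to 5.64%, 5.81% to 18.8%, 2.64% to 7.33% and 4.27% to 14.2%. Without knockdown-labelled library 2, the 3 members for the label (7.69%) stood against 27.3% of all genes and the 7 for berberine in the libraries labelled knockdown (17.9%) against 18.8%. Opposite signs of Hspa5 for the label without berberine were 0.14 without knockdown-labelled library 4, 0.41 without libraries 3 and 4, and 0.14 without the pair above. For berberine in the negative controls they were -0.12 with limma on log2(FPKM + 1), -0.17 without negative control library 4, -0.48 without library 4 with berberine and -0.48 without the pair. The rest were -0.073 (berberine in the libraries labelled knockdown) and -0.16 (interaction), both without libraries 3 and 4, and -0.044 for the label under berberine without library 1 of the negative controls with berberine. Those of Ddit3 were -0.046 and -0.048 for the label, without knockdown-labelled library 4 and without the pair. For berberine in the libraries labelled knockdown they were -0.0014 with the FPKM filter at 5, -0.050 and -0.075 without knockdown-labelled libraries 2 and 3, and -0.074 without library 2 with berberine. The cause was not tested. Leave-one-out values of Hspa5 ran from -0.70 to 0.14 for the label, -0.48 to 0.37 for berberine in the negative controls and -0.044 to 0.81 for the label under berberine. Those of Ddit3 ran from -0.046 to 0.33 for the label and -0.075 to 0.28 for berberine in the libraries labelled knockdown.

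The labels do not say whether replicate numbers pair the samples. Correlations of same-numbered libraries ran from -0.17 to 0.21 over 24 pairs, and 4 exceeded 0.1. Differently numbered libraries were not set beside them, so these values cannot decide whether the numbers pair the samples. With the replicate block, members at an unadjusted p under 0.05 numbered 3, 3, 4, 2 and 4, against 15%, 3.83%, 9.09%, 4.65% and 6.2% of all genes, with 0 called. On the limma scale the median of all genes moved by -0.10 for the label without berberine, 0.14 for berberine in the libraries labelled knockdown and 0.15 for the interaction. The number of mice, 4 per group, limits what these data can show; Derl3 and Asns rest on the fewest counts.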
